A study of Mus musculus with 8 samples.

Results

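Interferon-stimulated genes were examined in mouse CJ7 embryonic stem (ES) cells in which an shRNA, a short hairpin RNA that directs the breakdown of a chosen transcript, was aimed at the zinc-finger transcription factor Sall4. The 9 genes, Ddx58, Irf7, Isg15, Ifit1, Ifit3, Rsad2, Bst2, Ifi35 and Cxcl10, were taken by gene symbol from the platform annotation of the arrays, and each was read on its brightest probe set, the one with the highest mean log2 intensity over the 8 arrays. Of the 9 genes, 8 had a probe set annotated to them alone, out of 18193 such genes on the array. The only probe set for Isg15 is also annotated to Gm9706, so Isg15 is given no value. The 8 genes had 14 probe sets in all. A gene entered the tests if 2 or more of the 8 arrays called its probe set present. This held for 5 of the 8 (Ddx58, Rsad2, Bst2, Ifi35 and Cxcl10) and not for Irf7, Ifit1 and Ifit3. Across the series 14027 genes were tested.

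The series holds 8 arrays in 4 groups of 2. Depleted cells received the shRNA, which targets both Sall4 isoforms. Sall4a-only and Sall4b-only cells received the same shRNA together with an shRNA-immune cDNA of 1 isoform, the one in the group's name. Control cells received a lentivirus without shRNA. All 4 groups were infected for 24 hours with polybrene at 2.5 mcg/mL, then kept in ES cell medium with LIF and puromycin at 2 mcg/mL, and RNA was taken 48 hours after infection. Every group, the control included, therefore carried a lentivirus and was under drug selection, and no uninfected cells were analysed here. In comparisons with control, carrying an shRNA cannot be told apart from having less Sall4. The add-back groups carried the same shRNA as depleted cells and differed from them by the added isoform cDNA. The labels describe the arrays of a group as biological replicates without naming separate cultures. A p-value here rests on the spread between the 2 arrays of a group, pooled over all 4 groups, and that spread may be technical. Bulk RNA cannot separate fewer cells of a kind from less RNA per cell.

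Interferons are secreted proteins that warn neighbouring cells of infection. Cells make type I interferon when sensors such as RIG-I, the product of Ddx58, find viral RNA in the cytoplasm and switch on the transcription factors Irf3 and Irf7. Interferon then binds its receptor, the kinases Jak1 and Tyk2 act on STAT proteins, and these with Irf9 bind a DNA element called the ISRE in the promoters of interferon-stimulated genes. The products include Ifit1 and Ifit3, which bind viral RNA or act beside proteins that do, Rsad2 (viperin), an enzyme that makes a chain-terminating nucleotide, Bst2 (tetherin), which holds budding virus particles at the cell surface, the ubiquitin-like protein Isg15, and Cxcl10, a chemokine that draws T cells. Mouse ES cells are known to make little type I interferon and to respond to it weakly.

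The promoter windows of the genes the results turn on, with that of Ifit1 as a typical target that was not detected, are shown to let the interferon-type motifs be read directly. They run from 250 bases before to 50 after the start site on the strand of the gene, from RefSeq on build GRCm38.p6, and all 9 genes matched an entry. Capitals mark the letters AANNGAAA (the core bound by IRF proteins) or GAAA, any 2 bases and GAAA again (the ISRE, which contains that core), on either strand.
Ddx58, chr4:40239776-40240075, minus strand: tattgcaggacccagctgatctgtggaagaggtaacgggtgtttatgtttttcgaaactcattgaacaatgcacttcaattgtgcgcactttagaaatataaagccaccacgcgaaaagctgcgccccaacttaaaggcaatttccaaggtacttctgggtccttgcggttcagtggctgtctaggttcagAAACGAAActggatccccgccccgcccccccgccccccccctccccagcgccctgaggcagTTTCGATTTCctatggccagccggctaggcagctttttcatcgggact
Rsad2, chr12:26456403-26456702, minus strand: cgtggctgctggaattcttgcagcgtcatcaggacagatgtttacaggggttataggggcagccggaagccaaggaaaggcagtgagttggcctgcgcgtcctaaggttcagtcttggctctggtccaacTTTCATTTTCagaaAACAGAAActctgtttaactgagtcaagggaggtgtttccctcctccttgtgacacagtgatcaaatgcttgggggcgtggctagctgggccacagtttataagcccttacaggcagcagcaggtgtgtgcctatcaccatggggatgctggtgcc
Ifi35, chr11:101448162-101448461, plus strand: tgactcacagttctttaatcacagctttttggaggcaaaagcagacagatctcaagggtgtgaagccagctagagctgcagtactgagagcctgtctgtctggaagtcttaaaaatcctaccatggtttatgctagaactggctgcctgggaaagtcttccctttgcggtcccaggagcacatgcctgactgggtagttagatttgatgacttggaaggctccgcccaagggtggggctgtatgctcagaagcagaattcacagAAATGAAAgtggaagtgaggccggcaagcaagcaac
Cxcl10, chr5:92348840-92349139, minus strand: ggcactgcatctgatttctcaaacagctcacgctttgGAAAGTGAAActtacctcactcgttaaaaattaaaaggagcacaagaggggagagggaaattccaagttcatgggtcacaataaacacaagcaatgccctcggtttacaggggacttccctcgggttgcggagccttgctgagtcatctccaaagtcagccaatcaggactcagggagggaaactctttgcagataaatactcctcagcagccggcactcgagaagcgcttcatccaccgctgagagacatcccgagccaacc
Ifit1, chr19:34640639-34640938, plus strand: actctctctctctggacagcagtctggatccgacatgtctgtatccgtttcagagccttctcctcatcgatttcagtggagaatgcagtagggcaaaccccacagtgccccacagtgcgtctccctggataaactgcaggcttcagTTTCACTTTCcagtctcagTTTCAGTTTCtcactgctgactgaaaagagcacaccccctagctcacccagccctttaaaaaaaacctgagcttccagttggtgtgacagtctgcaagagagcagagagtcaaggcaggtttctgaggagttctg

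The ISRE letters occurred in 7 of the 9 windows, those of Irf7 and Ifi35 being without them, and in 1131 of all 32851 windows of the table (3.44%). The shorter IRF core was found in 8 of 9, all but Irf7, and in 7857 of all windows (23.9%). The letters TTCNNNGAA, the GAS element of interferon-gamma targets, stood in 2 of 9, Bst2 and Ifi35, against 8.3% of all windows. In Cxcl10 the ISRE match ended 204 bases before the start site. In Rsad2 it ended 111 bases before it, on the opposite strand, and in Ifit1 a pair of matches ended 95 and 76 bases before it. In Ddx58 the ISRE letters lay after the start site, and an IRF core ended 52 bases before it. A match is a description of the letters and says nothing of whether a factor was bound.

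With the array numbers this small, an exact two-sided permutation test of 2 arrays against 2 cannot go below p = 0.333, so the tests below are those of limma, fitted to all 8 arrays and adjusted by the Benjamini-Hochberg method over 14027 genes. Differences are in log2 units of intensity, the named group minus control unless stated. Sall4 itself, the labelled target, was lower by 0.47 to 0.66 log2 in the shRNA groups, and the difference of all shRNA groups from control, -0.57 (SE 0.086), did not pass (adjusted p = 0.170). The add-back groups read no higher than depleted cells: Sall4a-only minus depleted was -0.20 and Sall4b-only minus depleted was -0.096, neither past the threshold. The brightest Sall4 probe set, the only one read, thus showed no added signal in the groups named for an isoform. Where its probes lie was not examined here. The Sall4a-only arrays stood apart from each other: their log2 values differed with an SD of 0.62 over genes, beside 0.27 for the depleted, 0.28 for the Sall4b-only and 0.41 for the control pair. All 12 ES cell markers were called present on every array. The comparisons with control share the same 2 control arrays and are not independent of each other.

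None of the 5 tested genes passed the adjusted threshold of 0.05 in any of the 7 comparisons. Against control, 0% of all genes tested passed for depleted cells, and 0.00713% passed for Sall4a-only cells, for Sall4b-only cells and for all shRNA groups together. In each comparison that had a call it was 1 gene, Mmp12, lower than in control. Before adjustment 1111 genes in depleted cells, 1240 in Sall4a-only cells, 2112 in Sall4b-only cells and 1652 in all shRNA groups together had limma p under 0.05. The genes did not move in 1 direction. Ddx58 was higher on all 6 shRNA arrays, Rsad2 was lower on all 6, Ifi35 was lower in the add-back groups, Cxcl10 was lower in depleted and Sall4b-only cells, and Bst2 lay within the spread of its arrays. The median difference from control over the 8 genes was -0.037 for depleted, 0.0010 for Sall4a-only and -0.21 for Sall4b-only cells, beside medians over all genes tested of 0.0038, 0.035 and 0.061.

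**Figure D1:**
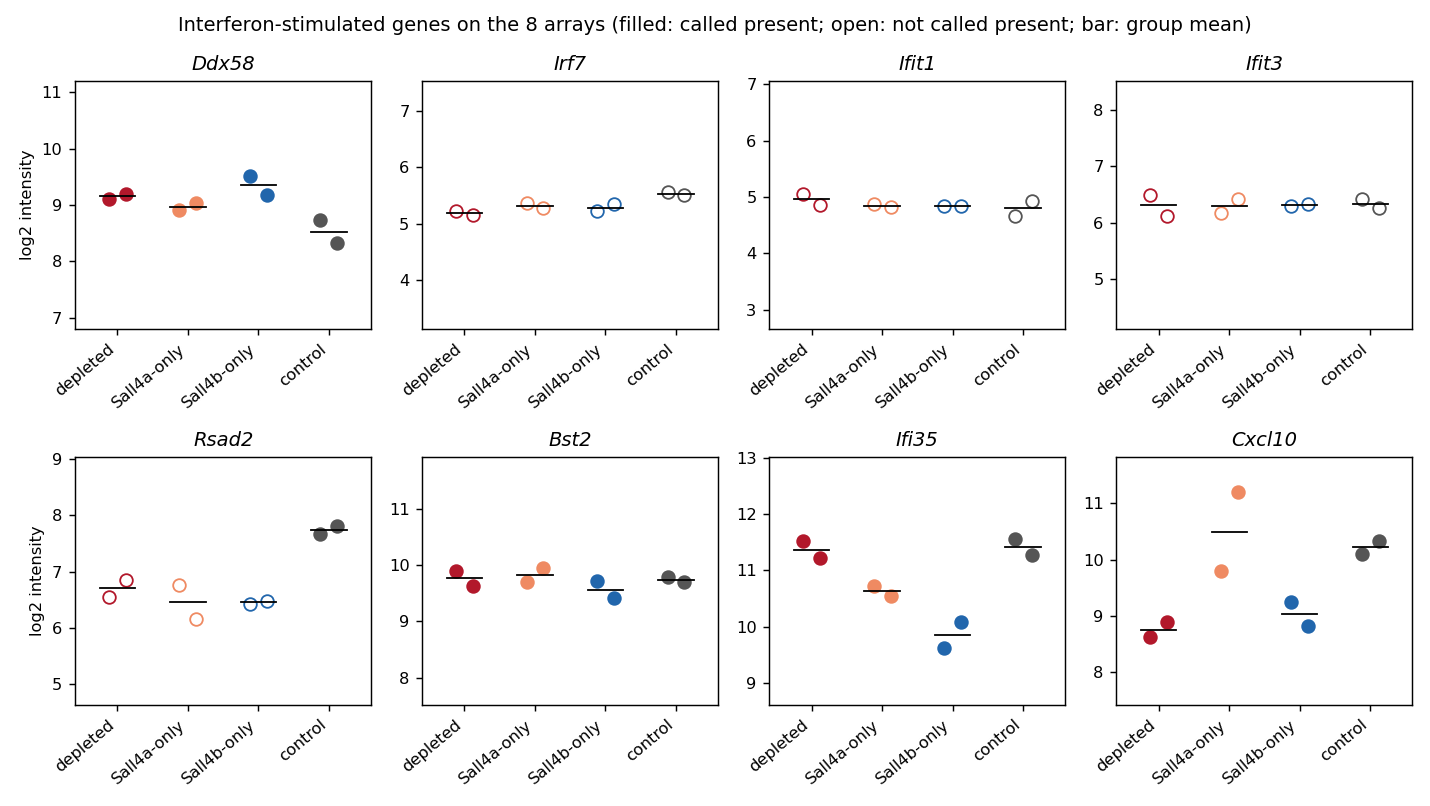
Log2 intensity (vertical axis) of the 8 genes on each array, in depleted, Sall4a-only, Sall4b-only and control cells; filled points are arrays on which the probe set was called present, open points the others, and bars are group means of 2 arrays. Ddx58 is higher and Rsad2 lower on the 6 shRNA arrays than on the 2 control arrays, and Irf7, Ifit1 and Ifit3 have no filled point.

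Before adjustment 3 or 4 of the 5 tested genes had a limma p under 0.05 in each comparison with control, in opposite directions. The genes were chosen with earlier results of these data known. Setting their counts beside the shares of all genes, here and below, is therefore a description and not a test. Rsad2, which entered the test only through its control arrays, is 1 of the lower genes in each of the counts against control. In depleted cells 1 of the 5 tested genes was higher and 2 were lower at limma p under 0.05, where 4.11% and 3.81% of all genes were. In Sall4a-only cells 1 was higher and 2 were lower, where 5.47% and 3.37% of all genes were. In Sall4b-only cells 1 was higher and 3 were lower, where 9.46% and 5.6% of all genes were. In all shRNA groups together 1 was higher and 2 were lower, where 7.12% and 4.66% of all genes were. Against depleted cells, 1 was higher and 1 lower in Sall4a-only cells, where 4.43% and 3.38% of all genes were, and 0 were higher and 1 lower in Sall4b-only cells, where 5.1% and 3.76% were. Between the add-back groups 2 were higher and 0 lower in Sall4a-only cells, where 3.07% and 2.77% of all genes were.

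Counted by arrays that did not overlap, 1 of the 5 was higher and 2 were lower in depleted than in control cells, where 21.5% and 19.6% of all genes were. In Sall4a-only cells 1 was higher and 2 were lower, where 17.8% and 12.2% of all genes were, and in Sall4b-only cells 1 was higher and 3 were lower, where 32.2% and 19.5% were. Against depleted cells, 1 was higher and 2 were lower in Sall4a-only cells (22.9% and 12.3% of all genes), and 0 were higher and 2 lower in Sall4b-only cells (37.8% and 18.9%). In Sall4a-only against Sall4b-only cells 2 were higher and 1 was lower (14.6% and 19.4%). Rsad2, which entered only through its control arrays, is 1 of the lower genes in each of these counts against control. It is also 1 of the lower genes in Sall4b-only against depleted cells, where it was called present on 0 arrays.

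Ddx58, the gene of the cytoplasmic RNA sensor RIG-I, was higher on every shRNA array than on both control arrays, but did not pass. Its brightest probe set read 552 and 586 in depleted cells, 480 and 525 in Sall4a-only cells and 734 and 582 in Sall4b-only cells, against 423 and 321 in control cells. All 8 arrays were called present, and 7.64% of all genes tested were higher on the 6 shRNA arrays in the same way. The log2 mean was 9.15 ± 0.062 in depleted, 8.97 ± 0.090 in Sall4a-only, 9.35 ± 0.24 in Sall4b-only and 8.53 ± 0.28 in control cells (SD, n = 2 each).

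The difference of Ddx58 from control was 0.62 in depleted cells (SE 0.18, 95% interval 0.18 to 1.07, adjusted p = 0.505), 1.54-fold. It was 0.45 in Sall4a-only cells (interval 0.0040 to 0.89, adjusted p = 0.564) and 0.83 in Sall4b-only cells (interval 0.38 to 1.27, adjusted p = 0.176). All shRNA groups together differed by 0.63 (SE 0.15, interval 0.27 to 0.99, unadjusted p = 0.0050, adjusted p = 0.242), a 1.55-fold higher level that did not pass. The direction did not rest on 1 probe set. A dimmer probe set, present on all 8 arrays, read 432 and 361 in depleted, 391 and 345 in Sall4a-only, 431 and 325 in Sall4b-only and 232 and 186 in control cells. Its differences were 0.93, 0.82 and 0.85 in the depleted, Sall4a-only and Sall4b-only groups, again without overlap. The third probe set was called absent throughout at 30.9 to 46.7. The shRNA groups did not differ from each other past the threshold in Ddx58, with differences of -0.18 for Sall4a-only and 0.20 for Sall4b-only minus depleted cells (adjusted p = 0.928 and 0.766).

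**Figure D2:**
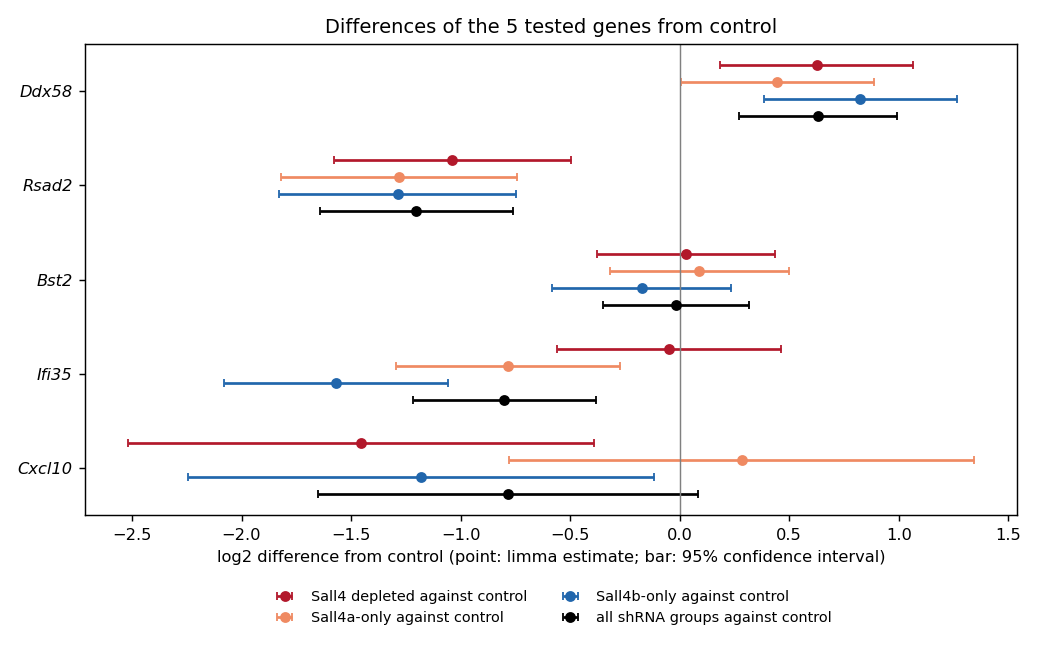
Log2 difference from control (horizontal axis) of the 5 tested genes in depleted, Sall4a-only and Sall4b-only cells and in all shRNA groups together; points are limma estimates and bars 95% confidence intervals. The 4 intervals of Ddx58 lie above 0, those of Rsad2 below 0 (on a probe set called absent on the shRNA arrays), those of Bst2 span 0, and those of Ifi35 and Cxcl10 differ by group.

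Irf7, the transcription factor that amplifies type I interferon production, was not detected. Its probe set read 37.5 and 35.7 in depleted, 41.2 and 38.7 in Sall4a-only, 37.4 and 40.7 in Sall4b-only and 47.1 and 45.6 in control cells, all called absent. The 6 shRNA values lay below the 2 control values, but no fold is given between values that are all below detection.

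Ifit1 and Ifit3, among the most strongly induced genes of a type I interferon response in mouse cells, were called absent on all 8 arrays. Ifit1 read 33.2 and 28.9 in depleted, 29.2 and 28.1 in Sall4a-only, 28.5 and 28.5 in Sall4b-only, and 25.4 and 30.5 in control cells. Ifit3 read 90.3 and 69.6 in depleted, 72.2 and 85.3 in Sall4a-only, 79.1 and 81.0 in Sall4b-only, and 85.3 and 76.3 in control cells. For both genes the shRNA and control values overlapped. They entered no test.

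Rsad2, which encodes viperin, was lower on all 6 shRNA arrays, and its brightest probe set was detected in the control alone. It read 94.0 and 116 in depleted cells, 109 and 71.1 in Sall4a-only cells and 86.4 and 89.0 in Sall4b-only cells, against 204 and 225 in control cells. The control arrays were both called present and 0 of the 6 shRNA arrays were, and the 6 lay below both control values, which 5% of all genes did. Rsad2 entered the test only through its control arrays.

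That probe set was below detection in the shRNA groups, so its folds set a detected level against undetected ones. On it, depleted cells measured 2.05-fold, Sall4a-only cells 2.43-fold and Sall4b-only cells 2.44-fold below control. These folds are estimates and not minima. The intervals of the log2 difference were -1.58 to -0.50 in depleted, -1.82 to -0.74 in Sall4a-only and -1.83 to -0.75 in Sall4b-only cells. Measured log2 means were 6.70 for the depleted, 6.46 for the Sall4a-only and 6.45 for the Sall4b-only group, against 7.74 for the control, and adjusted p was 0.409, 0.263 and 0.134 for the 3 groups. The adjusted p of all shRNA groups together was 0.170. The call turned on the Sall4a-only arrays: with both out of the fit, the limma adjusted p of Sall4b-only against control cells was 0.0406. For all shRNA groups without those arrays it was 0.0627.

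A dimmer Rsad2 probe set read 22.2 and 40.3 in depleted, 32.5 and 21.8 in Sall4a-only, 18.1 and 23.6 in Sall4b-only, and 29.5 and 78.5 in control cells. It was called present on both control arrays, on depleted replicate 2 and on Sall4a-only replicate 1, so Rsad2 was not below detection on every shRNA array. Depleted, Sall4a-only and Sall4b-only cells differed from control on it by -0.69, -0.85 and -1.22 (SE 0.51). Each was smaller in size than the difference measured on the brightest probe set, though only slightly so in Sall4b-only cells. The groups overlapped on it except for Sall4b-only against control cells. Between the shRNA groups no Rsad2 difference passed on either probe set.

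**Figure D3:**
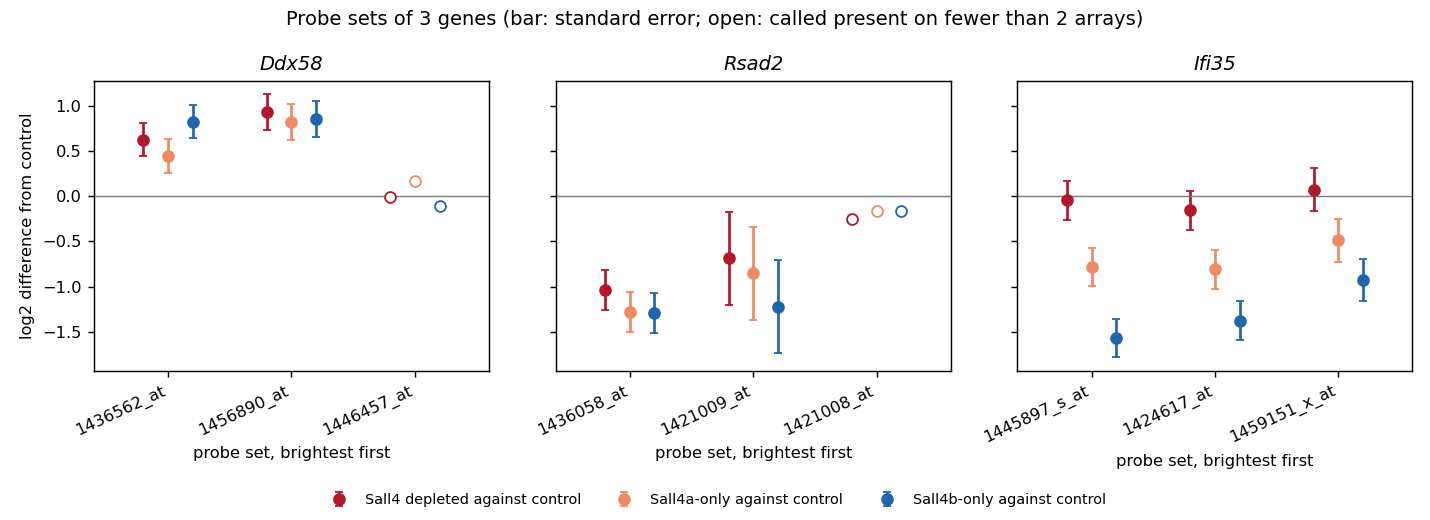
Log2 difference from control (vertical axis) for each probe set of Ddx58, Rsad2 and Ifi35, brightest first, in depleted, Sall4a-only and Sall4b-only cells; bars are standard errors and open points are probe sets present on fewer than 2 arrays. The detected probe sets of a gene lie on the same side of 0 for Ddx58 and Rsad2, and the order of the groups is alike in the 3 probe sets of Ifi35.

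Bst2, which encodes tetherin, was called present on every array, and its groups overlapped. It read 952 and 796 in depleted, 833 and 991 in Sall4a-only, 843 and 679 in Sall4b-only and 879 and 829 in control cells. No group lay wholly above or below the control. The difference of all shRNA groups was -0.018 (95% interval -0.35 to 0.31, adjusted p = 0.974). The separate differences from control were 0.029, 0.090 and -0.17 in depleted, Sall4a-only and Sall4b-only cells, and the widest interval reached -0.58. A test that misses the threshold does not show that the levels were equal.

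Ifi35, whose product pairs with the related interferon-induced protein Nmi, had unequal levels in the shRNA groups, lowest in Sall4b-only cells. It read 2951 and 2367 in depleted, 1684 and 1496 in Sall4a-only and 783 and 1082 in Sall4b-only cells, against 3022 and 2470 in control cells. Depleted cells overlapped the control, both Sall4a-only arrays lay below them, and both Sall4b-only arrays lay lower still. The mean intensity was 2659 ± 413 in depleted, 1590 ± 133 in Sall4a-only, 932 ± 211 in Sall4b-only and 2746 ± 390 in control cells (SD, n = 2 each).

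Against control Ifi35 differed by -0.048 in depleted cells (SE 0.21, 95% interval -0.56 to 0.46, adjusted p = 0.983). The difference was -0.78 in Sall4a-only cells (interval -1.29 to -0.27, unadjusted p = 0.0093, adjusted p = 0.416). In Sall4b-only cells it was -1.57 (interval -2.08 to -1.06, unadjusted p = 2.6e-04, adjusted p = 0.104), a 2.97-fold lower level that did not pass. Against depleted cells, which carry the same shRNA, Ifi35 was 2.87-fold lower in Sall4b-only cells (difference -1.52, unadjusted p = 3.1e-04, adjusted p = 0.213). Sall4a-only minus depleted was -0.74 (adjusted p = 0.486), and Sall4a-only minus Sall4b-only was 0.79 (adjusted p = 0.679). The other probe sets of Ifi35 gave -1.38 and -0.93 in Sall4b-only, -0.81 and -0.49 in Sall4a-only, and -0.15 and 0.071 in depleted cells, all minus control.

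Cxcl10, the chemokine, was called present on every array and followed another pattern. It read 396 and 474 in depleted, 889 and 2351 in Sall4a-only and 607 and 453 in Sall4b-only cells, against 1104 and 1280 in control cells. Depleted and Sall4b-only arrays lay below both control arrays, while the Sall4a-only arrays lay on either side of them. The log2 mean was 8.76 ± 0.18 in depleted, 10.50 ± 0.99 in Sall4a-only, 9.03 ± 0.30 in Sall4b-only and 10.22 ± 0.15 in control cells (SD, n = 2 each).

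Cxcl10 was 2.74-fold lower in depleted than in control cells (difference -1.46, SE 0.44, 95% interval -2.52 to -0.39, unadjusted p = 0.0151, adjusted p = 0.532). It was 2.27-fold lower in Sall4b-only cells (difference -1.18, unadjusted p = 0.0346, adjusted p = 0.301). Neither passed. In Sall4a-only cells the difference was 0.28 (adjusted p = 0.901), and it turned on 1 array: -0.42 without Sall4a-only replicate 2 and 0.98 without replicate 1. Sall4a-only cells had 3.34-fold more than depleted cells (difference 1.74, unadjusted p = 0.0069, adjusted p = 0.433) and 2.76-fold more than Sall4b-only cells (difference 1.46, adjusted p = 0.732). For all shRNA groups together the difference was -0.78 (SE 0.36, adjusted p = 0.460), and the groups overlapped.

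Most markers of the trophoblast, the lineage that forms the placenta, did not follow the pattern of Cxcl10. Of the 12 listed, only Hand1, Krt7, Krt8 and Krt18 had its signs against control in all 3 groups. All 12 listed markers were measured, and none was absent on every array. Their summed intensity was 33731 and 48869 in depleted, 64755 and 67292 in Sall4a-only and 30508 and 29692 in Sall4b-only cells, against 49054 and 65564 in control cells. Most of that sum came from the keratin genes Krt8 and Krt18, with mean intensities of 15573 and 22998 in control cells. It says little of the dimmer markers. Against control 4 were higher and 8 lower in depleted, 6 higher and 6 lower in Sall4a-only, and 1 higher and 11 lower in Sall4b-only cells, and none passed after adjustment. At an unadjusted limma p under 0.05, 0 were higher and 3 lower in depleted cells (4.11% and 3.81% of all genes). In Sall4a-only cells 1 and 3 were (5.47% and 3.37%), and in Sall4b-only cells 0 and 8 (9.46% and 5.6%). Without overlap the counts were 0 and 5 in depleted (21.5% and 19.6%), 3 and 4 in Sall4a-only (17.8% and 12.2%) and 0 and 9 in Sall4b-only cells (32.2% and 19.5%). The markers named here were chosen after their values were seen. Hand1, a transcription factor of trophoblast giant cells, differed from control by -1.37, 0.31 and -2.75 in depleted, Sall4a-only and Sall4b-only cells, and the keratin gene Krt7 by -1.34, 0.83 and -2.63, with the signs of Cxcl10. Other markers had other signs: the transcription factor gene Gata3 differed by 0.34, -0.75 and -0.54, Cdx2, which specifies the lineage, by 0.33, 1.55 and 0.016, and the placental gene Plac1 by -0.70, -1.45 and -1.99 in the same groups. On the arrays within the Sall4a-only group, Hand1 was higher on replicate 2, as Cxcl10 was, and Krt7 was higher on replicate 1. The part of these cells in the Cxcl10 result was not tested.

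**Figure D4:**
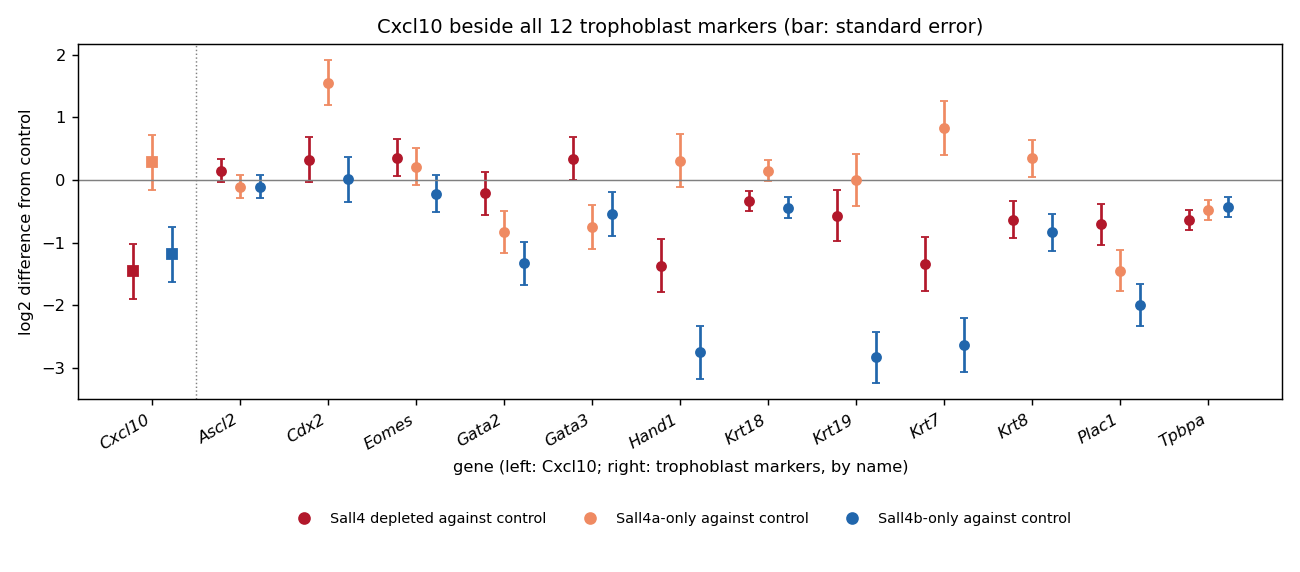
Log2 difference from control (vertical axis) of Cxcl10 (squares) and of all 12 trophoblast markers (circles) in depleted, Sall4a-only and Sall4b-only cells; bars are standard errors of the limma fit. Hand1, Krt7, Krt8 and Krt18 share the signs of Cxcl10 in the 3 groups, while Cdx2, Eomes, Krt19, Gata2, Gata3, Plac1, Ascl2 and Tpbpa do not.

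Of the blood and macrophage markers 14 were measured, and 7 were called present on no array, among them Ptprc, Itgam, Adgre1 and Spi1, which define leukocytes and macrophages. Others were detected, and the values named were chosen after they were seen. Cd68, a lysosomal macrophage marker present on all 8 arrays, differed from control by -0.83, -0.44 and -1.07 in depleted, Sall4a-only and Sall4b-only cells. Csf1r, the receptor of the main macrophage growth factor, present on 7 arrays, differed by -1.42, -0.19 and -2.38, and Laptm5, a lysosomal gene of blood cells, by 0.28, 0.82 and 1.11, and none of these passed. For all 14 the summed intensity was 5390 and 5620 in depleted, 10714 and 5638 in Sall4a-only and 8699 and 6786 in Sall4b-only cells, against 6848 and 6330 in control cells. Most of that sum came from Laptm5 and Cd68. Laptm5 had a mean intensity of 5683 in Sall4b-only and 2682 in control cells, and Cd68 of 1408 and 2983. Markers of fibroblasts, the usual feeder cells of ES cultures, summed to 112989 and 107621 in depleted, 45846 and 98789 in Sall4a-only and 71139 and 81945 in Sall4b-only cells, against 86893 and 78871 in control cells. All 24 were measured and 17 to 22 were called present per array, with Lum absent on all. Of the 22 tested, 20 were higher and 2 lower than control in depleted cells. In Sall4a-only cells 4 were higher and 18 lower, and in Sall4b-only cells 7 and 15. Without overlap 16 were higher and 1 lower in depleted cells (21.5% and 19.6% of all genes). In Sall4a-only cells 0 and 6 were (17.8% and 12.2%), and in Sall4b-only cells 4 and 9 (32.2% and 19.5%). None passed after adjustment. Endothelial markers summed to 3858 and 4187 in depleted, 2872 and 2438 in Sall4a-only, 3257 and 3424 in Sall4b-only and 3198 and 3319 in control cells, 8 being measured, with Tie1 and Emcn present on no array. Their part in the levels of the interferon-stimulated genes was not tested.

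The rest of the pathway was read from lists of its parts, in the contrast of all shRNA groups against control unless stated, and no gene of them passed after adjustment. Of 14 interferon ligand genes 1 was detected, Ifnz, a limitin gene of mouse type I interferon, at -0.33 (adjusted p = 0.340), lower on all 6 shRNA arrays than on the control arrays. Ifnb1, the interferon first made after RNA sensing, was called absent on all 8 arrays, at log2 values of 4.44 and 4.22 in depleted, 4.54 and 4.46 in Sall4a-only, 4.55 and 4.59 in Sall4b-only and 4.37 and 4.34 in control cells. With Ifnb1, 8 ligand genes were called present on 0 of the 8 arrays, and 5 had no probe set of their own.

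All 6 interferon receptor genes were tested, and all 6 were lower, with a median difference of -0.17 beside 0.033 over all genes. Of these, 2 had an unadjusted p under 0.05 and were lower on every shRNA array, where 4.66% and 5% of all genes were. Over all genes tested 6063 of 14027 were lower. Ifnar1, a subunit of the type I receptor, read log2 10.94 and 11.11 in depleted, 11.07 and 10.99 in Sall4a-only, 10.88 and 11.03 in Sall4b-only, and 11.25 and 11.56 in control cells, a difference of -0.41 (SE 0.12, adjusted p = 0.308). Ifngr2, of the type II receptor, differed by -0.75 (SE 0.23, adjusted p = 0.311). Ifnar2 and Ifngr1 differed by -0.14 and -0.16.

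Of the JAK-STAT signalling genes 5 were tested. Tyk2, a kinase bound to the type I receptor, was higher by 0.50 (SE 0.16, adjusted p = 0.324) and was the gene of this list with an unadjusted p under 0.05. Jak1 differed by -0.27, Stat2 by -0.14 and Irf9 by -0.26. Of 23 genes of RNA and DNA sensing 21 were tested, of which 13 were higher and 8 lower, with a median of 0.097. The Z-nucleic-acid sensor Zbp1, present on 2 of 8 arrays, was higher by 0.56 (adjusted p = 0.402), and no other gene of this list had an unadjusted p under 0.05. Eif2ak2, which encodes the kinase PKR, differed by 0.19, Traf6 by -0.21 and Irf5 by 0.16. Ifih1, the sensor related to Ddx58, differed by -0.30, and Mavs and Irf3, which act after both sensors, by 0.17 and 0.15.

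Of 5 other IRF genes 4 were tested, with 0 at an unadjusted p under 0.05 and values of -0.32 for Irf4, -0.32 for Irf8, -0.23 for Irf2 and 0.064 for Irf1. Of 8 negative regulators 6 were tested and 2 were higher at an unadjusted p under 0.05, where 7.12% of all genes were. They were Socs3, by 0.36 (adjusted p = 0.337), and Nlrx1, present on 4 of 8 arrays, by 0.36. Ptpn6 and Otud5 differed by 0.23 and -0.074. Of 12 genes of the NF-kB pathway and inflammation 7 were tested and 0 had an unadjusted p under 0.05, with a median of -0.18.

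A longer list of 60 other interferon-stimulated genes gave 41 that were tested, while 12 were below the filter and 7 had no probe set of their own. Of the 41, 20 were higher and 21 lower, with a median of -0.035, and 4 were higher and 5 lower at an unadjusted p under 0.05, where 7.12% and 4.66% of all genes were. In depleted cells 20 were higher and 21 lower, in Sall4a-only cells 22 and 19, and in Sall4b-only cells 21 and 20. The adjusted test called 0 of the 41 in each of these comparisons. At an unadjusted p under 0.05, 2 were higher and 4 lower in depleted cells, where 4.11% and 3.81% of all genes were. In Sall4a-only cells 3 were higher and 2 lower (5.47% and 3.37% of all genes), and in Sall4b-only cells 4 and 6 (9.46% and 5.6%). Without overlap between all shRNA and control arrays there were 4 higher and 3 lower, where 7.64% and 5% of all genes were.

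Samd9l, an interferon-induced gene that restrains poxviruses, read log2 6.93 and 6.74 in depleted, 7.36 and 6.82 in Sall4a-only, 7.43 and 7.12 in Sall4b-only, and 5.96 and 5.99 in control cells. All 8 arrays were called present, and the groups did not overlap. Its difference for all shRNA groups was 1.09 (SE 0.17, unadjusted p = 6.1e-04, adjusted p = 0.178), 2.13-fold. Gbp6, a guanylate-binding protein gene present on 2 of 8 arrays, was higher by 0.50 (adjusted p = 0.225). Ifi30, a lysosomal thiol reductase gene, was lower by 0.68 (adjusted p = 0.245), and Znfx1, an RNA helicase gene, was lower by 0.35 (adjusted p = 0.265).

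Further classical interferon-stimulated genes differed in direction. Ifit2, chosen after its values were seen as a neighbour of Ifit1 and Ifit3, read 7.24 and 7.22 in depleted, 7.03 and 8.05 in Sall4a-only, 7.26 and 7.89 in Sall4b-only, and 6.69 and 6.08 in control cells, log2. It was present on all 8 arrays, higher on the 6 shRNA arrays, and differed by 1.06 (SE 0.32, adjusted p = 0.314). Usp18, which removes Isg15 from proteins and damps receptor signalling, differed by -1.07 (adjusted p = 0.400), and its control arrays lay apart at 6.55 and 7.90. Mx1, an antiviral GTPase gene present on 3 of 8 arrays, differed by -0.73 (adjusted p = 0.344). Oasl2, of the oligoadenylate synthetase family, was called absent on all 8.

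**Figure D5:**
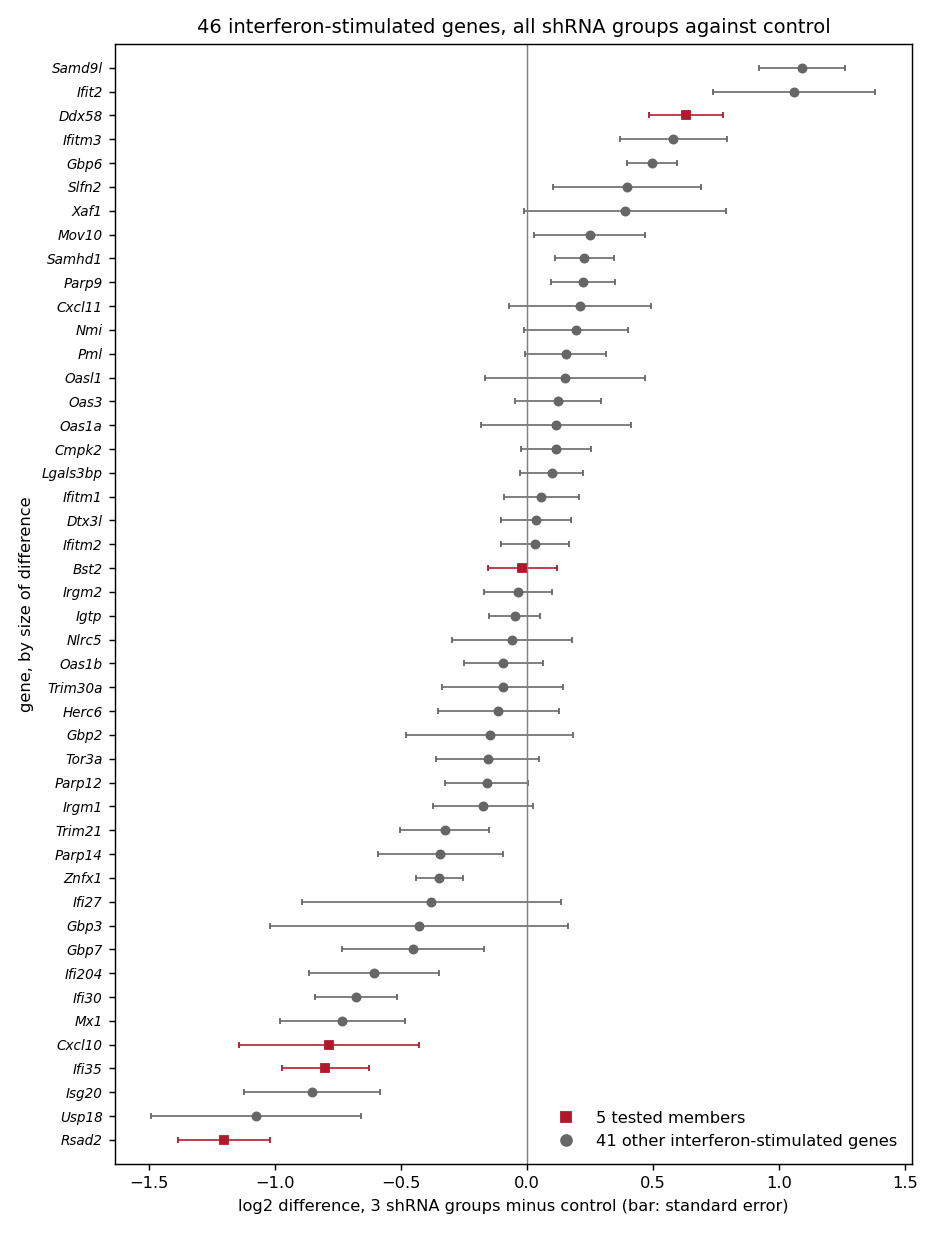
Log2 difference of all shRNA groups from control (horizontal axis) for the 5 tested genes (squares) and 41 other interferon-stimulated genes (circles), ordered by size; bars are standard errors. Values lie on both sides of 0, with Samd9l, Ifit2 and Ddx58 highest and Rsad2 and Usp18 lowest.

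For each gene present on all 8 arrays, the 2 tested genes of most similar pattern were found by Pearson's r of log2 intensity over the 8 arrays, as a description of these arrays that share the 4 groups. They were Grk6 (r = 0.985) and Tbc1d10b (0.975) for Ddx58, Kcnip1 (0.966) and Zfp644 (0.930) for Bst2, Hoxb13 (0.959) and Cstad (0.956) for Ifi35, and Ethe1 (0.978) and Pef1 (0.968) for Cxcl10. None of these was on the interferon pathway lists.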

How the data were processed

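The authors' deposited values are linear intensities, 1 per probe set and array, with a present, marginal or absent call. Per the submitters' processing notes RMA was used; no version is stated, and how the calls were made is not stated either. The 3 deposited tables held identical values (0 differed). Log2 of the deposited intensity was taken with no pseudocount. Array medians were 141 to 149.8, and 62.1% to 66.5% of probe sets were called present. Of 45101 probe sets, 34958 had 1 gene symbol, 932 several and 9211 none. Probe sets present on at least 2 of 8 arrays were kept and the brightest used per gene.

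With 1 mean per group (4 groups), all 8 arrays were fitted together in limma 3.58.1 in R 4.3.3 (statmod 1.5.0), a fit also tested on simulated data. The threshold was an adjusted p of 0.05. Where the dimmer group was called present on no array, it was taken at its own value or at the lowest intensity called present, whichever is higher. For Rsad2 its own value was used, so the folds given are the measured ones.

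The 9 genes and all lists were chosen with earlier results of these data known. Named were the 9, up to 4 genes of each list with the smallest p for all shRNA groups, and Ifnb1, Ifnar1, Ifnar2, Stat2, Irf9, Irf3, Ifih1, Mavs, Mx1, Oasl2 and Usp18; 1 further gene is not reported here. Alternatives were another normalization, other filters, a trended prior, fewer arrays, means over probe sets and a replicate block.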

Additional observations from a re-analysis of the deposited data

How the results depend on the processing

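Ddx58, Bst2, Ifi35 and Cxcl10 passed the adjusted threshold under none of the settings tried, and Rsad2 passed under none in depleted or in Sall4a-only against control cells. In Sall4b-only against control cells Rsad2 passed without both Sall4a-only arrays (limma adjusted p = 0.0406, difference -1.29). Leaving out either of them alone leaves the same residuals for that comparison and is not a separate result. For all shRNA groups its difference was -1.31 without Sall4a-only replicate 1. Rsad2 entered the test only through its control arrays, where it was high, so passing here is a description and not support. The number of genes past the threshold moved most. In Sall4b-only against control cells it was 1 in the reported setting, 7 with quantile normalization again, 5 with genes present on all arrays of at least 1 group, 17 with a trended and robust prior, 14 with only those groups, and 121 without both Sall4a-only arrays. In Sall4a-only against control cells it was 7 with the trended prior, 0 with only those groups and 2 with means of all probe sets, and in depleted cells 2 with the trended prior. For all shRNA groups it was 6 with the trended prior and 11 without the Sall4a-only arrays. For Sall4a-only against depleted cells it was 8 with the trended prior and 6 with means of all probe sets. For Sall4b-only against depleted cells it was 7 with the trended prior, 61 with only those groups and 66 without the Sall4a-only arrays. Some of these fits differed in their numbers of arrays or genes, and the cause of the shifts was not tested. Leaving out 1 array at a time gave 0 to 1 genes in depleted, 0 to 110 in Sall4a-only and 0 to 121 in Sall4b-only cells and 0 to 45 in all shRNA groups against control. It gave 0 to 287 in Sall4a-only and 0 to 66 in Sall4b-only against depleted cells, and 0 to 47 in Sall4a-only against Sall4b-only cells. The highest counts came without a Sall4a-only array, except in depleted cells.

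The median difference of the 8 genes ran over these fits from -0.21 to 0.13 in depleted, -0.16 to 0.047 in Sall4a-only and -0.26 to -0.17 in Sall4b-only cells and -0.20 to -0.12 in all shRNA groups against control. It ran from -0.11 to 0.073 in Sall4a-only and -0.14 to 0.052 in Sall4b-only against depleted cells, and from -0.0040 to 0.11 in Sall4a-only against Sall4b-only cells. Differences that changed sign had all missed the threshold. Over the fits without 1 array, Bst2 ran from -0.10 (without depleted replicate 1; -0.014 without control replicate 2) to 0.16 in depleted cells, from -0.035 (without Sall4a-only replicate 2) to 0.22 in Sall4a-only cells and from -0.070 to 0.033 in all shRNA groups (0.024, 0.025, 0.023 and 0.033 without control 1, depleted 2, Sall4a-only 1 and Sall4b-only 2), all against control. Ifi35 in depleted against control cells was 0.098 without control replicate 1 and 0.11 without depleted replicate 2. Cxcl10 in Sall4a-only against control cells ran from -0.42 to 0.98. In Sall4a-only against depleted cells Bst2 ran from -0.068 (-0.064 without Sall4a-only replicate 2) to 0.19 and Rsad2 from -0.55 to 0.067. In Sall4a-only against Sall4b-only cells Rsad2 ran from -0.30 to 0.32, and was -0.015 without Sall4b-only replicate 1.

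Same-numbered arrays deviated together unevenly, so the numbers were not taken as pairs. The correlation was 0.57 between the depleted and control groups, and -0.12 to 0.20 between the other pairs of groups. With a replicate block 0 genes passed in Sall4a-only against control, 2 in Sall4b-only against control and 2 for all shRNA groups.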
